A study of Mus musculus with 9 samples.

Results

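Nuclear genes encoding subunits of the mitochondrial respiratory chain and of ATP synthase were followed through 3 states of mouse dental papilla cells: spheres, monolayer and primary cells. The 59 genes were taken by name from a list of subunit genes among the 53353 entries of the table of counts. They comprise 33 genes of complex I, 4 of complex II, 7 of complex III, the gene of cytochrome c (Cycs), 11 of complex IV and 3 of complex V. Of the 59 genes, 57 had enough counts to be tested, and the other 2, Ndufa13 and Cox4i1, were listed at 0 in every library.

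The respiratory chain sits in the inner mitochondrial membrane. Complex I takes electrons from NADH and complex II takes them from succinate. Both pass them by way of ubiquinone to complex III, then cytochrome c carries them to complex IV, which reduces oxygen. The protons pumped along the way drive ATP synthase, complex V. Most subunits are encoded in the nucleus and imported, while a small core is encoded in mitochondrial DNA, so the assembled enzymes draw on both genomes. Dental papilla cells are the mesenchymal part of a developing tooth and give rise to the dental pulp and to odontoblasts, the cells that secrete dentin.

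RNA sequencing covered 9 libraries from cells of C57BL/6 mice, 3 for each state. Spheres were seeded from passage 2 cells on ultra-low attachment plates, in a basal medium thickened with methylcellulose, and grown for 8 days. Monolayer cells grew attached, in medium with 2% serum and 1% growth supplement; the source label says 8 days and the growth protocol 14 days. Medium and culture format differ together between these groups, so their effects cannot be told apart. The last group is labelled primary cells, whereas the series' design text names DPC P2 in its place. No genetic modification is named for any group. Whether the 3 libraries of a state stem from different animals or dishes is not stated in the labels. The p-values then reflect library-to-library spread alone, and that spread may be technical.

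Total counts per library were 35957376 to 50823554 in spheres, 43935018 to 52047254 in monolayer and 44620255 to 47570939 in primary cells. The unit of level is CPM: counts divided by the size of the library after TMM scaling (trimmed mean of M values), which sets the bulk of genes equal between libraries. Its factors were 1.07 to 1.082 in spheres, 0.8615 to 0.8817 in monolayer and 1.065 to 1.072 in primary cells. Scaling by total counts alone therefore shifted the median gene by 0.30 (log2) in spheres against monolayer and by -0.30 in monolayer against primary cells, and by only 0.01 in spheres against primary cells. Reads were counted over whole gene spans, introns included, so levels are compared between groups for a gene and not between genes. These are bulk samples, in which fewer cells with a given level and less RNA per cell cannot be told apart.

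Markers of the labelled tissue were present in every group, and both these and markers of other cell types moved with the groups. The 12 dental mesenchyme markers summed to 29423 to 31381 CPM in spheres, 100015 to 109384 CPM in monolayer and 55084 to 56714 CPM in primary cells, mostly from Col1a1. In spheres, 2 of the 12 were higher and 10 lower against monolayer, where 40.7% and 37.7% of all tested genes were. Against primary cells 3 were higher and 9 lower, where 38.9% and 40.6% of all tested genes were. Their log2 changes ranged from -5.21 to 1.65 and from -4.93 to 0.66 in these comparisons. The 16 epithelial markers summed to 577 to 590 CPM in spheres, 3.33 to 4.39 CPM in monolayer and 229 to 233 CPM in primary cells; Amelx was at 0 in every library, and Ambn, which encodes the enamel protein ameloblastin, averaged 523 CPM in spheres and carried most of the sum there. Of the 13 epithelial markers tested, 11 were higher and 1 lower in spheres against monolayer, but 3 were higher and 9 lower in spheres against primary cells. The 13 macrophage markers summed to 51.3 to 54.8 CPM in spheres, 15.3 to 17.5 CPM in monolayer and 30.4 to 33.2 CPM in primary cells. The 8 glial and neuronal markers summed to 29.6 to 33.8 CPM in spheres, 5.24 to 7.22 CPM in monolayer and 8.09 to 9.46 CPM in primary cells, mostly from Snap25 and Syn1 in spheres. The 8 endothelial markers summed to 1.29 to 1.49 CPM in spheres, 28.3 to 29.5 CPM in monolayer and 14.1 to 16.4 CPM in primary cells, mostly from Kdr in the last 2 groups. The 6 erythroid markers summed to at most 1.07 CPM in any library. Markers of muscle, a tissue rich in mitochondria, and of fat were near 0. The 8 skeletal muscle markers summed to 0.390 to 0.823 CPM in spheres, 1.14 to 1.20 CPM in monolayer and 3.61 to 4.25 CPM in primary cells, with Acta1 and Myod1 at 0 everywhere. The 7 adipocyte markers summed to 3.29 to 4.25 CPM in spheres, mostly from Fabp4, and to 0.502 to 0.602 CPM over both other groups. The part of any of these cell types in the results below was not tested.

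Summed over the 59 genes, the level was higher in spheres than in either other state. Their summed level was 5239, 5392 and 5322 CPM in the 3 sphere libraries, 4183, 4121 and 4212 CPM in monolayer, and 4442, 4382 and 4404 CPM in primary cells. Every sphere library lay above every library of the other groups, and every monolayer library lay below every primary library. Atp5b and Atp5a1 were the largest parts of these sums. They averaged 834 and 664 CPM of 5318 CPM in spheres, 587 and 501 of 4172 CPM in monolayer, and 677 and 559 of 4409 CPM in primary cells. As a share of all counts, with no scaling, the genes took 0.567 to 0.579% in spheres, 0.363% in each monolayer library and 0.469 to 0.475% in primary cells.

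Against monolayer, spheres had higher levels of most of these genes. Of the 57 tested, 45 were higher, 4 were lower and 8 did not pass the threshold of 0.05 on the adjusted p of edgeR's quasi-likelihood test. Over all 15675 genes tested, 40.7% were higher and 37.7% were lower by the same rule, so that 51.9% of the called genes were higher; scaled by total counts, 53 of the 57 were higher and 4 did not pass, and 67.4% of all called genes were higher. The median log2 change of the 57 genes was 0.34, against 0.04 for all genes tested. Values of the 2 groups did not overlap for 45 genes higher and 5 genes lower in spheres, where the share over all genes was 40.8% higher and 37.5% lower. When tested against a change of 1.5-fold, 6 of the genes passed, all of them higher in spheres, against 19.8% higher and 21.5% lower over all genes. Scaled by total counts, which moved the median gene by 0.3, 29 passed. The share over all genes past 1.5-fold under that scaling is not given here. The plot of fitted changes sets the 3 comparisons side by side by complex.

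**Figure D1:**
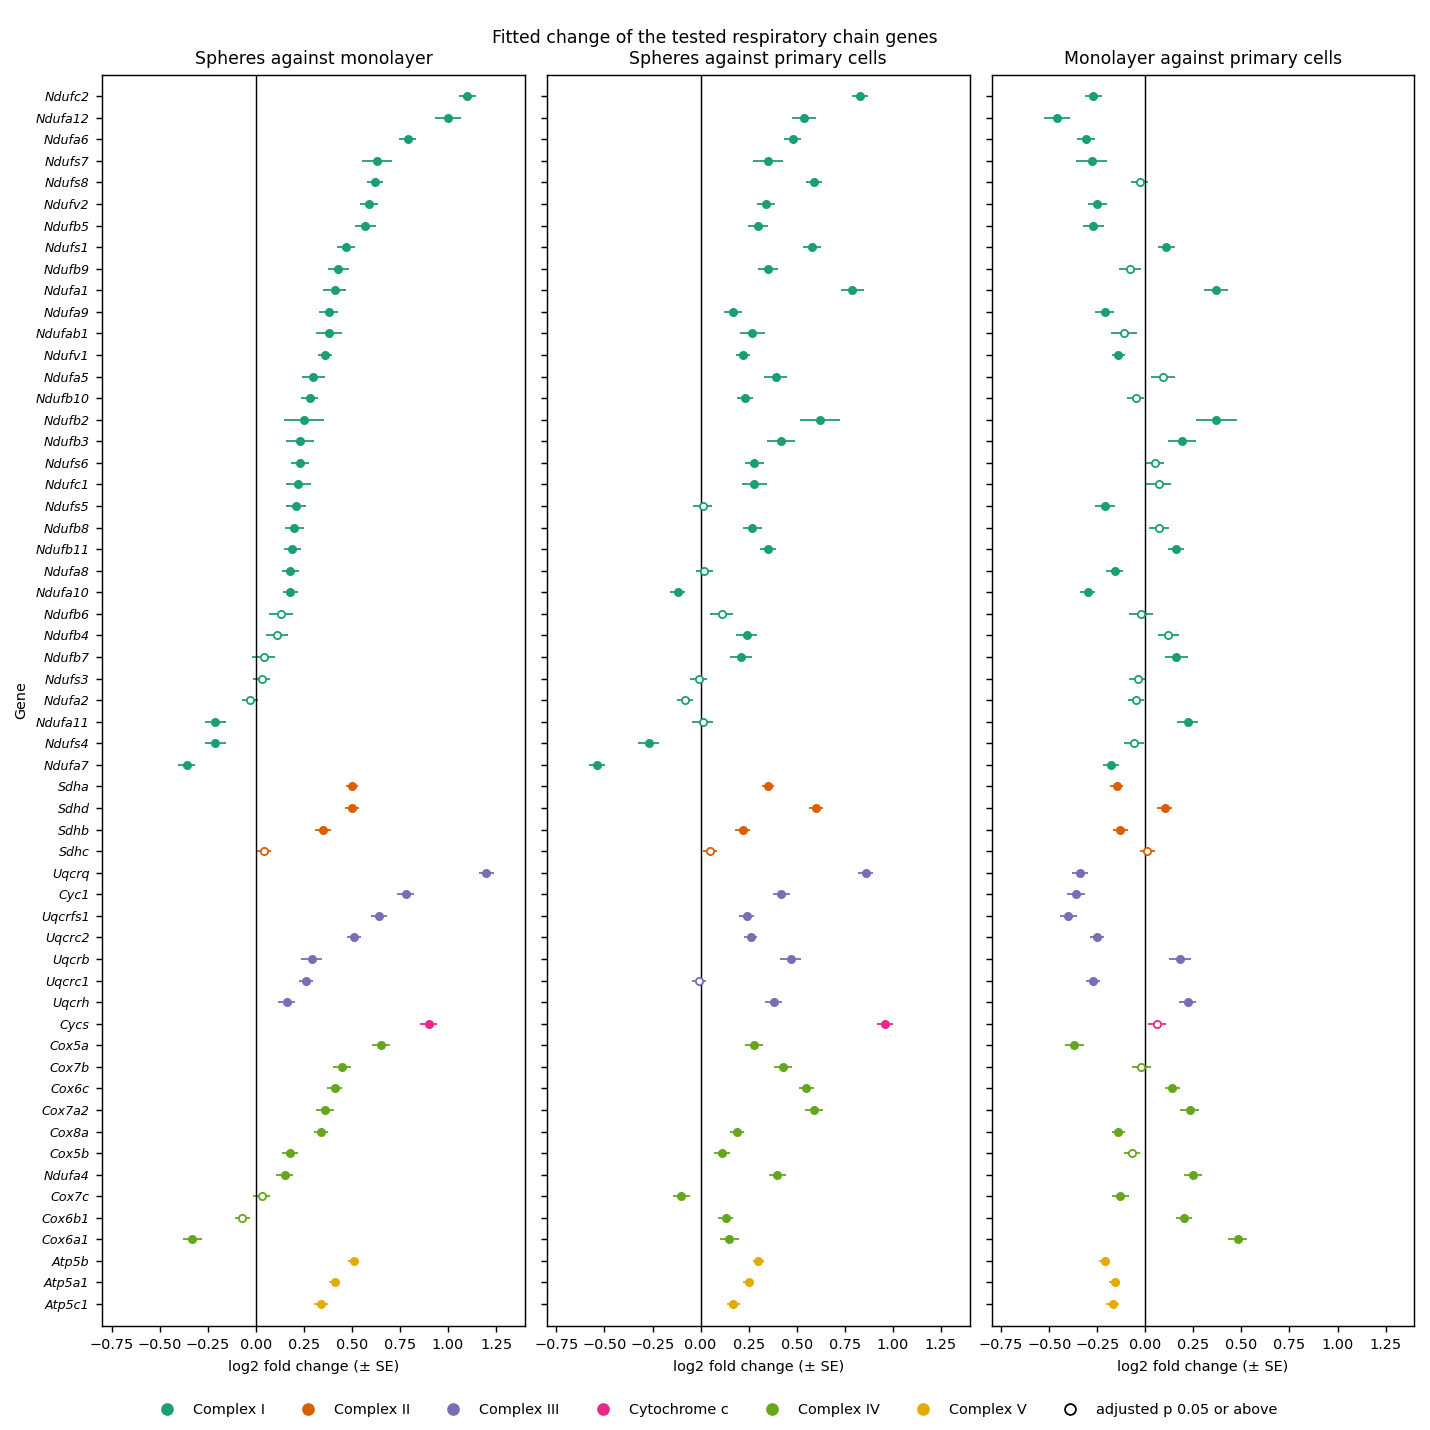
Fitted log2 fold change with its standard error (horizontal axis) for each of the 57 tested genes (vertical axis, ordered within each complex by the change in spheres against monolayer), in 3 panels for the 3 comparisons, with open symbols for an adjusted p of 0.05 or above. In the left and middle panels most symbols lie right of 0, with medians of 0.34 and 0.28, and in the right panel they lie on both sides, with a median of -0.06.

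In spheres against monolayer, complex III had 7 of 7 genes higher and a median log2 change of 0.51, the highest of the 5 complexes. Uqcrq (chr11:53427922-53430831, minus strand, GRCm38) encodes a small subunit of the complex. Its level was 195, 184 and 185 CPM in spheres, 78.6, 78.7 and 87.4 CPM in monolayer, and 103, 104 and 102 CPM in primary cells. The 3 groups did not overlap, with spheres highest and monolayer lowest, and the log2 change in spheres against monolayer was 1.20 ± 0.0399 (SE, n = 3 libraries each; edgeR adjusted p = 5.16e-20). Cyc1 (chr15:76343523-76345934, plus strand) encodes cytochrome c1, the haem protein that hands electrons to cytochrome c. It had 108, 126 and 119 CPM in spheres, 67.3, 67.1 and 71.4 CPM in monolayer, and 87.2, 87.2 and 90.6 CPM in primary cells. Its groups were ordered in the same way without overlap, and the change in spheres against monolayer was 0.78 ± 0.0446 (edgeR adjusted p = 1e-14).

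The other complex III genes rose less in spheres against monolayer. Uqcrfs1, the Rieske iron-sulphur protein, averaged 70.5 ± 2.98 CPM in spheres and 45.3 ± 1.39 CPM in monolayer (SD, n = 3 each), a log2 change of 0.64. The core proteins Uqcrc2 and Uqcrc1 changed by 0.51 and 0.26. Uqcrb changed by 0.29 and Uqcrh, the hinge protein, by 0.16. All 5 passed the threshold.

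Cycs (chr6:50562563-50566538, minus strand) encodes somatic cytochrome c, the mobile carrier between complexes III and IV, which also triggers apoptosis when released into the cytosol. It had 66.2, 69.4 and 65.3 CPM in spheres, 36.7, 35.1 and 35.4 CPM in monolayer, and 34.9, 33.5 and 34.8 CPM in primary cells. Spheres lay above both other groups in every library, whereas monolayer and primary cells were close to each other. The log2 change was 0.90 ± 0.0438 in spheres against monolayer (edgeR adjusted p = 2.58e-16) and 0.96 ± 0.0433 in spheres against primary cells (edgeR adjusted p = 5.58e-17). Processed pseudogene copies of Cycs and of Uqcrh have entries of their own in the table, and how reads matching several places were assigned is not given in the sources used here.

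In complex I, 24 of 32 tested genes were higher in spheres than in monolayer and 3 were lower, with a median log2 change of 0.24. Of the 3 genes past 1.5-fold, Ndufc2 (chr7:97400003-97407802, plus strand), an accessory subunit of the membrane arm, had 62.0, 64.2 and 60.1 CPM in spheres, 28.5, 29.2 and 29.2 CPM in monolayer, and 34.7, 35.7 and 34.5 CPM in primary cells. The groups did not overlap, and the change was 1.10 ± 0.0450 (edgeR adjusted p = 5.98e-18). Ndufa12 (chr10:94198955-94221443, plus strand), an accessory subunit of the peripheral arm, had 35.7, 42.0 and 43.5 CPM in spheres, 19.9, 18.9 and 22.0 CPM in monolayer, and 28.1, 28.5 and 27.2 CPM in primary cells. Its groups were also apart, although sphere library 1 was below the other sphere libraries, and the change was 1.00 ± 0.0660 (edgeR adjusted p = 2.65e-13). Ndufa6 (chr15:82350139-82354291, minus strand), a subunit of the peripheral arm that binds the acyl carrier protein Ndufab1, had 55.8, 53.7 and 56.0 CPM in spheres, 30.9, 32.0 and 32.9 CPM in monolayer, and 40.8, 39.8 and 38.1 CPM in primary cells. Again spheres were highest and monolayer lowest in every library, with a change of 0.79 ± 0.0459 (edgeR adjusted p = 1.4e-14).

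Among the catalytic core of complex I, 5 of the 6 genes followed here were higher in spheres than in monolayer. The iron-sulphur proteins Ndufs7, Ndufs8 and Ndufs1 changed by 0.63, 0.62 and 0.47. Of the exon bases of Ndufs1, 70.4% lie within spans of other genes on the opposite strand. Ndufv1, which binds the flavin that accepts electrons from NADH, changed by 0.36, and its partner Ndufv2 by 0.59. Ndufs3 did not pass, with 49.2 ± 1.95 CPM in spheres, against 48.0 ± 1.59 CPM in monolayer (edgeR adjusted p = 0.473). Accessory subunits ranged more widely, down to the 3 that were lower. Calls of Ndufb2, Ndufb3 and Ndufc1, at 0.25, 0.23 and 0.22, were each lost when a single library was left out. That was so for Ndufb2 without any of 4 libraries (adjusted p from 0.0546 to 0.0896) and with DESeq2 (0.0995), Ndufb3 without monolayer library 1 (0.0531) and Ndufc1 without sphere library 2 (0.0507).

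Within complexes the changes differed in sign, and 4 genes fell in spheres against monolayer after TMM scaling, 3 of complex I and 1 of complex IV. Ndufa7 (chr17:33824591-33838316, plus strand), an accessory subunit of the peripheral arm, had 43.3, 45.8 and 47.8 CPM in spheres, 59.1, 59.3 and 58.1 CPM in monolayer, and 66.7, 65.2 and 68.1 CPM in primary cells. Every sphere library lay below the other groups, and the change against monolayer was -0.36 ± 0.0425 (edgeR adjusted p = 1.88e-08), or -0.06 and no longer past the threshold when scaled by total counts. Ndufs4 (chr13:114287795-114388258, minus strand), a late-joining subunit whose loss in mice gives a Leigh-like disease, had 24.8, 25.1 and 23.8 CPM in spheres, 27.8, 29.2 and 28.2 CPM in monolayer, and 30.5, 30.5 and 27.8 CPM in primary cells. Spheres were lowest in every library, while monolayer and primary cells overlapped; the change against monolayer was -0.21 ± 0.0541 (edgeR adjusted p = 0.00113), and 0.10 when scaled by total counts.

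Ndufa11 (chr17:56717762-56724248, plus strand), a membrane-arm subunit at the contact with complex III, had 33.4, 40.4 and 37.1 CPM in spheres, 42.4, 42.2 and 44.0 CPM in monolayer, and 38.0, 35.5 and 36.7 CPM in primary cells. Spheres lay below monolayer in every library and spanned the range of primary cells, and the change against monolayer was -0.21 ± 0.0553 (edgeR adjusted p = 0.00134), and 0.10 when scaled by total counts. Cox6a1 (chr5:115345642-115348981, minus strand), the broadly expressed form of complex IV subunit 6A, had 258, 292 and 295 CPM in spheres, 360, 325 and 378 CPM in monolayer, and 256, 253 and 256 CPM in primary cells. Monolayer stood above both other groups in every library, and the change in spheres against monolayer was -0.33 ± 0.0514 (edgeR adjusted p = 1.59e-05), or -0.02 and not past the threshold when scaled by total counts. None of these 4 calls held when the libraries were scaled by total counts.

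**Figure D2:**
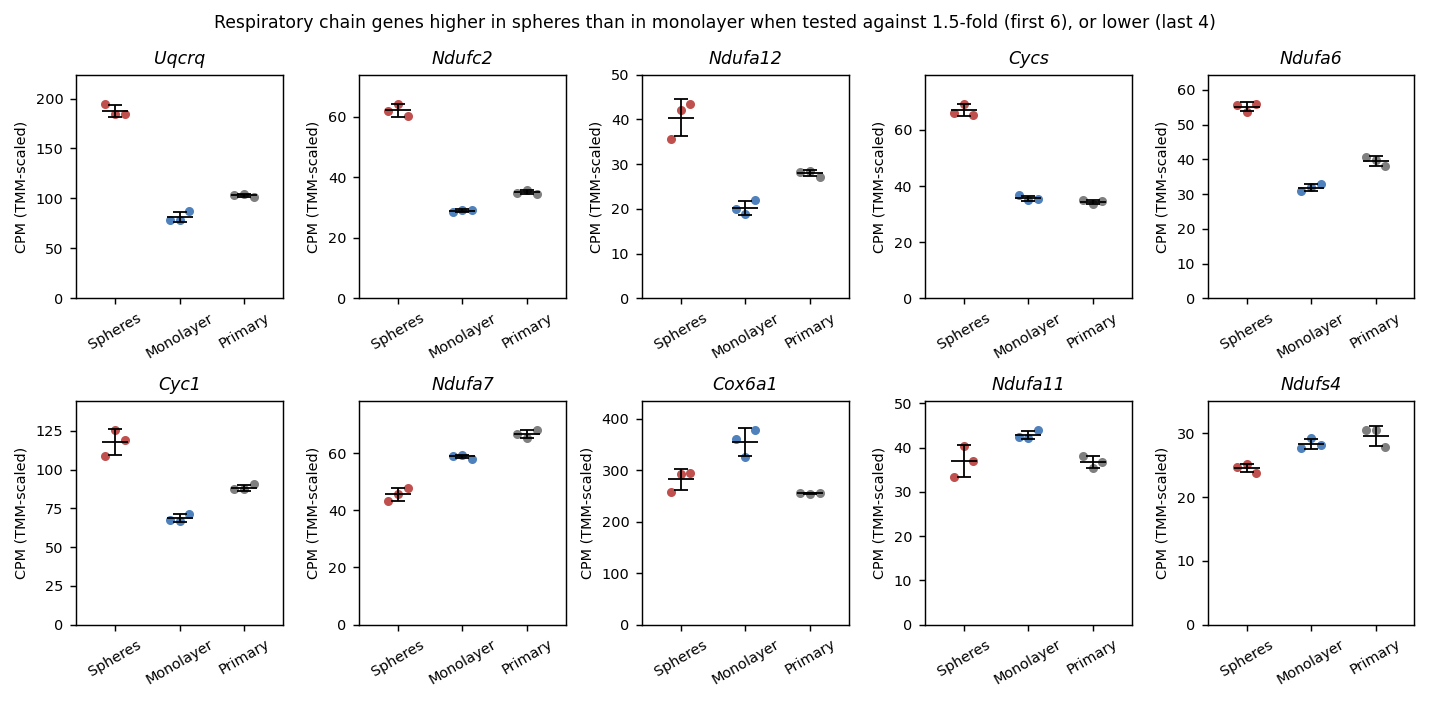
Level in CPM after TMM scaling (vertical axes, each from 0) of 10 genes in spheres, monolayer and primary cells (horizontal axes); coloured points are libraries, and black bars give the mean and SD of 3. For Uqcrq, Ndufc2, Ndufa12, Cycs, Ndufa6 and Cyc1 spheres lie above both other groups, and for Ndufa7 and Ndufs4 they lie below both.

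Complex II, which also works in the citric acid cycle, had 3 of 4 genes higher in spheres than in monolayer. Sdha, the flavoprotein that oxidises succinate, had 251, 256 and 252 CPM in spheres, 181, 182 and 175 CPM in monolayer, and 199, 203 and 194 CPM in primary cells, without overlap between groups; the change in spheres against monolayer was 0.50 ± 0.0318 (edgeR adjusted p = 1.23e-13). Sdhb, the iron-sulphur protein, changed by 0.35 and Sdhd, a membrane anchor, by 0.50. The other anchor, Sdhc, had 88.0, 94.7 and 88.0 CPM in spheres, 88.0, 88.4 and 86.7 CPM in monolayer, and 89.8, 85.0 and 86.5 CPM in primary cells. Its groups overlapped, and it passed the threshold in none of the 3 comparisons after TMM scaling (edgeR adjusted p from 0.215 to 0.828). When scaled by total counts, Sdhc passed in spheres against monolayer, at 0.35, and in monolayer against primary cells, at -0.29.

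All 3 complex V genes followed here encode the catalytic head of ATP synthase, and all 3 were higher in spheres than in monolayer. Atp5b, the beta subunit that holds the catalytic sites, had 825, 843 and 835 CPM in spheres, 588, 574 and 598 CPM in monolayer, and 686, 663 and 682 CPM in primary cells. Groups did not overlap, with spheres highest and monolayer lowest, and the change in spheres against monolayer was 0.51 ± 0.0287 (edgeR adjusted p = 7.79e-15). Atp5a1, the alpha subunit, and Atp5c1, the central stalk, changed by 0.41 and 0.34. In complex IV, 7 of 10 tested genes were higher and Cox6a1 was lower. Cox5a and Cox7b changed most, by 0.65 and 0.45, while Cox7c and Cox6b1 did not pass (edgeR adjusted p = 0.508 and 0.100). The summed level of complex IV genes overlapped between spheres, at 902 to 941 CPM, and monolayer, at 864 to 910 CPM, and Cox6a1 gave 258 to 295 and 325 to 378 CPM of these sums.

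Short upstream sequences are shown for 4 genes, Ndufc2 and Cycs among those past 1.5-fold higher in spheres and Cox6a1 and Ndufa11 among those lower, to show where matches to NRF1, a factor known for binding respiratory chain promoters, lie in 3 of them. They come from the RefSeq table of promoters (GRCm38.p6), which held 48 of the 59 genes. Each run gives 120 bases, 5′ to 3′ on the gene's strand, ending before the more upstream of the RefSeq start and the start in the table of counts; capitals mark matches to GCGCANGCG, where N is any base, on either strand.
Ndufc2, chr7:97399883-97400002, plus strand: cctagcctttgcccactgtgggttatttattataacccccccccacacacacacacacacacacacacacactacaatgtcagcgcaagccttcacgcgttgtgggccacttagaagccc
Cycs, chr6:50566570-50566689, minus strand: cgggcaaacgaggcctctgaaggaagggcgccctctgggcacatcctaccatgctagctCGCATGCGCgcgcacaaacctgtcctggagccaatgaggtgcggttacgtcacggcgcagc
Cox6a1, chr5:115348982-115349101, minus strand: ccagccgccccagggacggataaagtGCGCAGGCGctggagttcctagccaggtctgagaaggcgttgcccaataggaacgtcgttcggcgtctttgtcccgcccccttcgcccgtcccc
Ndufa11, chr17:56717642-56717761, plus strand: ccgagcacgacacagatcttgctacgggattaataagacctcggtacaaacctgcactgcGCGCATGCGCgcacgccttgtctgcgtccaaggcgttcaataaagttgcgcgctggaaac
The capitals in Ndufa11 cover overlapping matches, and Ndufc2 holds none. Windows were also read for 3 more genes of these 2 sets, Ndufa12 and Ndufa6 (higher) and Ndufa7 (lower); they hold no match and are not shown, so that 3 of the 7 windows read have one.

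Over the 250 bases before the RefSeq start, 10 of the 48 genes (20.8%) held a match to the NRF1 letters, against 5.2% of 32851 promoters. For the ETS letters CCGGAAG, bound by GABP, these shares were 14.6% (7 genes) and 6.9%. For AAGGTCA, bound by oestrogen-related receptors, they were 6.2% (3 genes) and 4.1%. For the letters NACGTGC of hypoxia-inducible factors they were 4.2% (2 genes) and 4.9%. AAGATGGCG, of YY1, was in none of the 48 and in 0.6% of all promoters. Both strands were read, and none of these motifs contains another. For each of the 48 genes only the promoter nearest its start in the table of counts was read, whereas the 32851 include every listed promoter. The 32851 were not matched to the 48 by expression or base composition, so the shares are not a test of enrichment. The 10 genes with NRF1 letters had log2 changes from -0.33 (Cox6a1) to 0.90 (Cycs) in spheres against monolayer, with a median of 0.22, and the 37 tested genes without them had a median of 0.34. A match in these windows describes letters and not binding.

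Against primary cells, spheres again had higher levels of most of these genes. Of the 57, 45 were higher and 4 lower by the edgeR test, where 38.9% of all genes tested were higher and 40.6% were lower. The median log2 change was 0.28, against -0.02 for all genes. Groups did not overlap for 44 genes higher and 5 lower in spheres, against 39.8% and 41.4% over all genes. When tested against 1.5-fold, 4 genes passed, all of them higher in spheres, against 18.4% higher and 23.2% lower over all genes. This comparison and the preceding one share the sphere libraries.

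The 4 genes past 1.5-fold were Cycs, given above, and Uqcrq, Ndufc2 and Ndufa1. Uqcrq changed by 0.86 ± 0.0390 (edgeR adjusted p = 5.87e-17) and Ndufc2 by 0.83 ± 0.0435 (edgeR adjusted p = 1.73e-15). Ndufa1 (chrX:37187588-37191163, minus strand), a small membrane-arm subunit needed for complex I assembly, had 34.4, 31.8 and 30.3 CPM in spheres, 24.6, 23.2 and 24.6 CPM in monolayer, and 20.2, 17.8 and 17.9 CPM in primary cells. Here the order was spheres, monolayer and primary cells without overlap, and the change against primary cells was 0.79 ± 0.0605 (edgeR adjusted p = 5.63e-12). Ndufb2, another membrane-arm subunit, had 8.05, 7.52 and 7.83 CPM in spheres and 4.63, 4.59 and 5.94 CPM in primary cells, a change of 0.62. Sdhd followed with 0.60.

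By complex, spheres exceeded primary cells in 23 of 32 complex I genes, 3 of 4 complex II genes, 6 of 7 complex III genes, 9 of 10 complex IV genes and all 3 complex V genes. Complex IV genes Cox7a2 and Cox6c changed by 0.59 and 0.55, and Ndufa4, once counted as a complex I subunit and now placed in complex IV, by 0.40. Uqcrc1 did not pass, at 156 ± 7.45 CPM in spheres and 157 ± 2.24 CPM in primary cells (edgeR adjusted p = 0.816). The 4 genes lower in spheres were Ndufa7 at -0.54 ± 0.0418 (edgeR adjusted p = 5.46e-12), Ndufs4 at -0.27, Ndufa10 at -0.12 and Cox7c at -0.10. The call of Cox7c was lost without sphere library 1, sphere library 2 or primary library 1 (adjusted p from 0.0751 to 0.198), and with DESeq2, relative log expression scaling or total counts (0.0515 to 0.0837). Calls of Cox6a1, Cox6b1 and Cox5b, at 0.15, 0.13 and 0.11, were each lost without primary library 2, at adjusted p of 0.0508, 0.071 and 0.232, and that of Cox6a1 also without sphere library 2 or 3 (0.0649 and 0.0651). Upper quartile scaling also ended these 3 calls (0.239, 0.244 and 0.495).

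Between monolayer and primary cells the changes were smaller, from -0.46 to 0.48 on the log2 scale, and here the direction depended on the scaling. After TMM scaling, 15 genes were higher in monolayer, 25 were lower and 17 did not pass, against 34.4% higher and 36.9% lower over all genes tested; scaled by total counts, 1 was higher and 48 were lower. Of all called genes, 48.2% were higher by TMM and 25.6% by total counts. The median log2 change was -0.06 after TMM scaling, against -0.03 for all genes, and -0.36 when scaled by total counts, against -0.32 for all genes. Groups did not overlap for 17 genes higher and 27 lower in monolayer, against 35.8% and 38.6% over all genes. By edgeR's test against 1.5-fold 0 passed at an adjusted p under 0.05, where 12.1% of all genes were higher and 14.4% lower. At an unadjusted p under 0.05, 0 of these genes passed as well, and no share over all genes is given for that rule. Scaled by total counts, which moved the median gene by -0.3, 4 passed. The share over all genes past 1.5-fold under that scaling is not given here. Set against the median of all genes after TMM scaling, the 57 genes stood 0.30 higher in both comparisons of spheres. In monolayer against primary cells they stood 0.03 lower. By total counts these differences were 0.30, 0.30 and -0.04. Another scaling moves all genes by nearly the same amount, so the differences stay nearly fixed by construction and are no separate evidence.

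**Figure D3:**
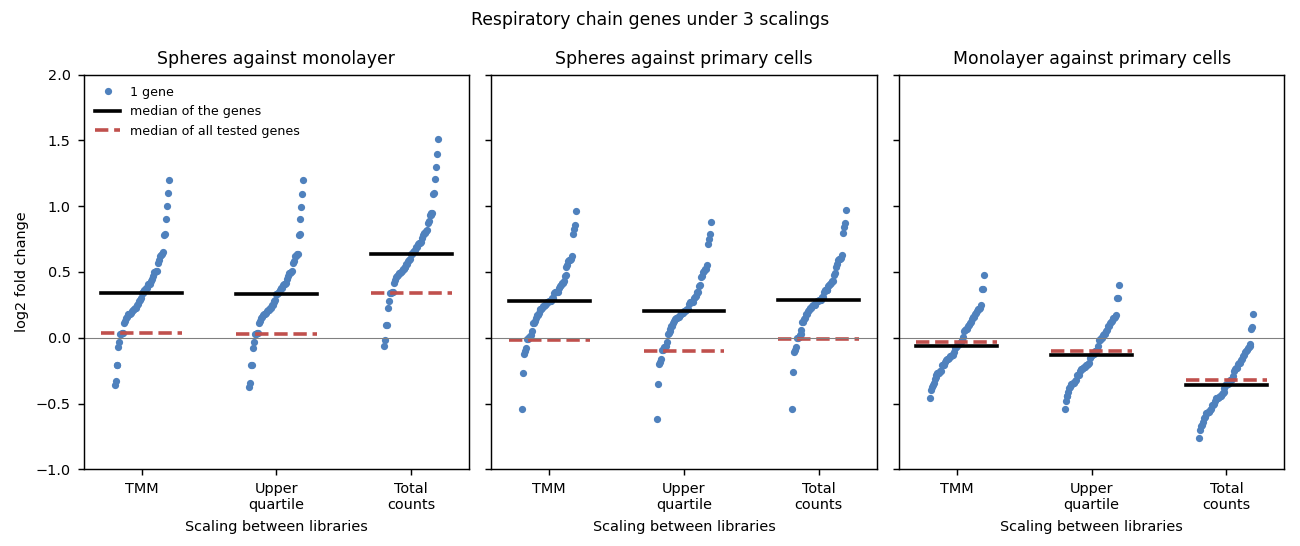
Log2 fold change (vertical axis) of each of the 57 genes under scaling by TMM, upper quartile or total counts (horizontal axis) in the 3 comparisons; black lines are their medians and dashed red lines the medians of all tested genes. In spheres against monolayer both lines move together by construction, the genes' median being 0.34 by TMM and 0.64 by total counts. In monolayer against primary cells the 2 medians nearly coincide under each scaling.

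Within complexes, monolayer against primary cells split the genes. Complex III had 5 of 7 genes lower, among them Uqcrfs1 at -0.40 ± 0.0421 (edgeR adjusted p = 3.51e-09), Cyc1 at -0.36 and Uqcrq at -0.34, and complex V had 3 of 3 lower, at -0.21 for Atp5b, -0.17 for Atp5c1 and -0.16 for Atp5a1. These also passed as lower when scaled by total counts. So did the other largest falls, Ndufa12 at -0.46 ± 0.0675 (edgeR adjusted p = 1.06e-06), Cox5a at -0.37 and Ndufa6 at -0.31. That scaling moves the median gene by -0.3 in this comparison. Falls could therefore only deepen, and their persistence is no test of them. Complex IV instead had 5 of 10 genes higher by TMM, led by Cox6a1 at 0.48 ± 0.0515 (edgeR adjusted p = 2.57e-07), which still passed at 0.18 when scaled by total counts. Ndufa1 and Ndufb2, both at 0.37, fell short of the threshold by total counts, at 0.08 and 0.07. The directions of Ndufa4, Cox7a2, Uqcrh and Ndufa11, at 0.25, 0.23, 0.22 and 0.22 by TMM, turned to -0.05, -0.06, -0.08 and -0.07 by total counts. Sdhd, at 0.10 by TMM, also turned, and its TMM call was lost without monolayer library 2, primary library 1 or primary library 3 (adjusted p from 0.0525 to 0.068), with no filter on low counts (0.0608) and by upper quartile scaling (0.496).

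Some subunits of complex IV exist in alternative forms whose genes are used in particular tissues or oxygen levels, and several of these genes differed more between groups than the 57 genes above. Cox4i2, the alternative form of subunit 4 known for use in lung and under low oxygen, had 47.0, 47.5 and 48.8 CPM in spheres, 2.33, 1.77 and 2.43 CPM in monolayer, and 19.8, 20.7 and 19.1 CPM in primary cells. Groups were far apart, spheres highest and monolayer lowest, with changes of 4.45 ± 0.0811 in spheres against monolayer (edgeR adjusted p = 6.82e-26), 1.27 in spheres against primary cells and -3.19 in monolayer against primary cells. Its usual counterpart, Cox4i1, lies wholly within the span of Gm20388 on the same strand (chr8:120668222-120674207 for Cox4i1) and is listed at 0, so no ratio of the 2 forms can be given. Ndufa13 (chr8:69894180-69902558) likewise lies wholly within Yjefn3.

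Ndufa4l2, a relative of Ndufa4 known as a target of hypoxia-inducible factor, took another order. It had 1.11, 0.896 and 1.32 CPM in spheres, 3.59, 2.82 and 4.04 CPM in monolayer, and 24.8, 25.1 and 26.6 CPM in primary cells. Primary cells were highest and spheres lowest without overlap, with changes of -1.64 ± 0.154 in spheres against monolayer (edgeR adjusted p = 3.05e-10) and -4.52 ± 0.120 in spheres against primary cells (edgeR adjusted p = 3.96e-22). Cox6b2, a form of subunit 6B known from testis, had 1.16, 1.68 and 1.47 CPM in spheres, 11.5, 10.2 and 11.6 CPM in monolayer, and 9.01, 8.06 and 8.89 CPM in primary cells. Spheres were lowest in every library, with changes of -2.93 ± 0.122 in spheres against monolayer (edgeR adjusted p = 9.47e-18) and -2.57 ± 0.124 in spheres against primary cells (edgeR adjusted p = 2.42e-16). The broadly used Cox6b1 had log2 differences of -0.07, not past the threshold, and 0.13 in these comparisons.

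**Figure D4:**
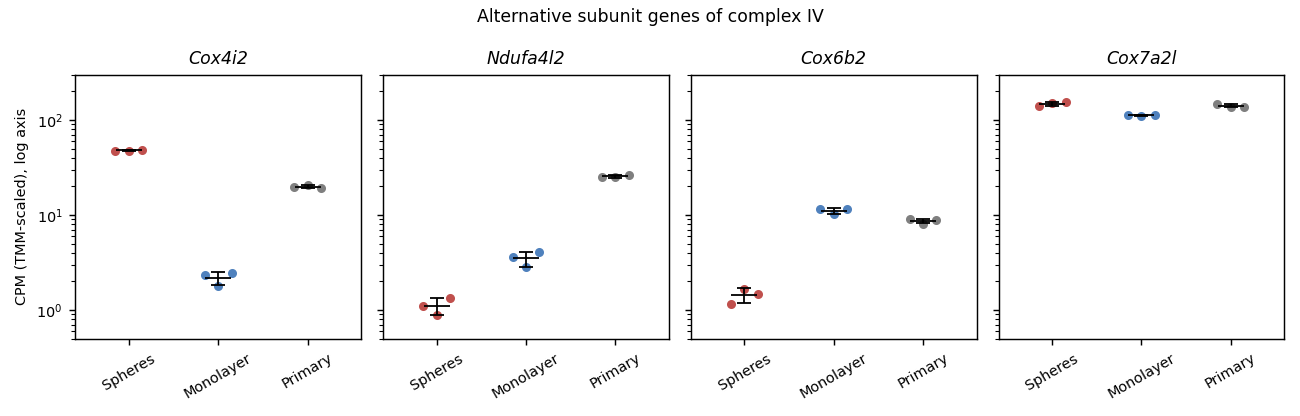
Level in CPM after TMM scaling (vertical axis, logarithmic) of 4 alternative subunit genes in spheres, monolayer and primary cells (horizontal axes), with points for libraries and bars for the mean and SD of 3. Cox4i2 is highest in spheres at 47.0 to 48.8 CPM and lowest in monolayer, whereas Ndufa4l2 and Cox6b2 are lowest in spheres, at 0.896 to 1.32 and 1.16 to 1.68 CPM.

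Cox7a2l averaged 148 ± 5.91 CPM in spheres, 111 ± 1.85 CPM in monolayer and 141 ± 4.84 CPM in primary cells (SD, n = 3 each). It was higher in spheres than in monolayer by 0.41 (edgeR adjusted p = 1.63e-10) and did not pass against primary cells (edgeR adjusted p = 0.0794). Forms known from heart and skeletal muscle were near the detection floor. Cox8b had 41 counts in all over the 3 sphere libraries, 0 in monolayer and 9 in primary cells, and Cox7a1 had 43, 56 and 86. Cox6a2 had no count in any library.

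A further 19 subunit genes outside the 59, mostly of ATP synthase, were also followed. In spheres against monolayer 11 were higher and 5 lower (57.9% and 26.3%, against 40.7% and 37.7% over all genes). Scaled by total counts, 16 were higher and 2 lower, where 8627 of all 15675 genes tested were higher and 4171 lower. In spheres against primary cells 12 were higher and 5 lower (63.2% and 26.3%, against 38.9% and 40.6% over all genes). Atp5g3 and Atp5g1, which encode the ring of membrane subunits that turns as protons pass, changed by 0.67 and 0.44 in spheres against monolayer, and by 0.71 and 0.58 in spheres against primary cells. Atp5e, the epsilon subunit of the central stalk, averaged 56.8 ± 2.82 CPM in spheres and 77.9 ± 3.21 CPM in monolayer, a fall by 0.45 (edgeR adjusted p = 4.77e-10).

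Genes that help build the complexes were counted in the same way, and their difference from the subunits was not tested. Among 13 tested assembly factors of complex I, 6 were higher and 1 lower in spheres against monolayer, and 5 were higher and 7 lower in spheres against primary cells. Ndufaf4 averaged 18.2 ± 0.710 CPM in spheres, 7.64 ± 0.138 CPM in monolayer and 8.25 ± 0.493 CPM in primary cells, changes of 1.25 and 1.14 in spheres against each (edgeR adjusted p = 4.32e-14 and 1.62e-13). Nubpl, which delivers iron-sulphur clusters to complex I, was lower in spheres than in primary cells by 0.99 on the log2 scale, at 3.98 ± 0.269 against 7.90 ± 0.289 CPM. Among 20 factors of complex IV, 7 were higher and 5 lower in spheres against monolayer, and 6 were higher and 7 lower in spheres against primary cells. Lrpprc, which stabilises mitochondrial mRNAs, changed by 1.14 and 0.58 in spheres against monolayer and primary cells, and Coa7 by 1.17 and 0.56. Among 13 factors of complexes II, III and V, 8 were higher and 2 lower in spheres against monolayer, and 5 were higher and 8 did not pass in spheres against primary cells; upper quartile scaling made the last split 4 higher and 4 lower. Against monolayer these counts depended on the scaling: by total counts 12 were higher for complex I, 15 for complex IV and 11 for complexes II, III and V. Of all 15675 genes tested, 8627 were higher and 4171 lower by that scaling. Read against all genes, at 40.7% higher and 37.7% lower by TMM, complex IV factors lay near the background in spheres against monolayer (35% and 25%). Complex I factors were 46.2% higher and 7.69% lower there, and factors of complexes II, III and V 61.5% higher and 15.4% lower. In spheres against primary cells, where all genes were 38.9% higher and 40.6% lower, complex IV factors were 30% higher and 35% lower and complex I factors 38.5% higher and 53.8% lower. Factors of complexes II, III and V were 38.5% higher, near the share of all genes, and 0% lower.

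Most genes of several other mitochondrial programs were also higher in spheres than in monolayer. Of 72 tested genes of the mitochondrial ribosome, which translates the subunits encoded in mitochondrial DNA, 50 were higher and 8 lower, with a median of 0.24. These are 69.4% and 11.1%, against 40.7% and 37.7% over all genes. By total counts 66 were higher and 4 lower, where 8627 of all 15675 genes tested were higher and 4171 lower. In spheres against primary cells 34 were higher and 16 lower (47.2% and 22.2%, against 38.9% and 40.6% over all genes). Upper quartile scaling made this split 23 higher and 22 lower. Mrpl38, of the large subunit, averaged 60.1 ± 2.42 CPM in spheres and 25.6 ± 2.01 CPM in monolayer, a change of 1.24 (edgeR adjusted p = 3.46e-17). Mrps6, of the small subunit, whose span overlaps Slc5a3, averaged 11.9 ± 0.322 CPM in spheres and 41.7 ± 1.67 CPM in monolayer, a change of -1.81 (edgeR adjusted p = 2.58e-21). Mitochondrial DNA itself could not be followed, since its 37 entries are listed at 0. Of 24 genes for import, chaperones and inner membrane carriers, 17 were higher and 5 lower in spheres against monolayer (70.8% and 20.8%). Hspa9, the chaperone that pulls proteins into the matrix, averaged 662 ± 25.6 CPM in spheres and 208 ± 3.33 CPM in monolayer, a change of 1.67 (edgeR adjusted p = 2.23e-25). Slc25a5, an ADP and ATP exchanger, averaged 357 ± 10.7 CPM in spheres, 135 ± 3.78 CPM in monolayer and 144 ± 3.15 CPM in primary cells.

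Of 17 citric acid cycle and pyruvate dehydrogenase genes, 13 were higher and 3 lower in spheres against monolayer. These are 76.5% and 17.6%, against 40.7% and 37.7% over all genes. In spheres against primary cells 11 were higher and 3 lower (64.7% and 17.6%, against 38.9% and 40.6% over all genes). Idh3a, of the NAD-linked isocitrate dehydrogenase, had 84.1, 87.6 and 87.6 CPM in spheres, 42.7, 44.1 and 39.9 CPM in monolayer, and 46.1, 46.5 and 44.5 CPM in primary cells, changes of 1.03 and 0.92 in spheres against each. Ogdh, of the oxoglutarate dehydrogenase that follows it in the cycle, went the other way against monolayer. It averaged 156 ± 4.28 CPM in spheres, 305 ± 10.0 CPM in monolayer and 150 ± 3.38 CPM in primary cells, with monolayer alone set apart, and the change in spheres against monolayer was -0.97 ± 0.0344 (edgeR adjusted p = 2.68e-19).

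Regulators known to drive mitochondrial biogenesis were higher in spheres in 15 of 19 genes against monolayer, with 2 lower. These are 78.9% and 10.5%, against 40.7% and 37.7% over all genes. Against primary cells 11 of 19 were higher and 2 lower (57.9% and 10.5%, against 38.9% and 40.6% over all genes). Log2 changes ranged from -1.58 to 3.91 against monolayer and from -1.25 to 1.49 against primary cells, and the genes named next are all from the higher side. Ppargc1b, the coactivator PGC-1 beta, had 18.5, 20.1 and 18.9 CPM in spheres, 5.21, 4.82 and 4.36 CPM in monolayer, and 6.70, 6.47 and 7.31 CPM in primary cells. Spheres lay above both other groups in every library, with changes of 1.99 ± 0.0864 against monolayer (edgeR adjusted p = 2.21e-17) and 1.49 ± 0.0803 against primary cells (edgeR adjusted p = 3.05e-15). Esrrb, an oestrogen-related receptor, averaged 8.82 ± 0.445 CPM in spheres, 0.579 ± 0.0959 CPM in monolayer and 3.57 ± 0.486 CPM in primary cells. Tfam and Twnk, which package and unwind mitochondrial DNA, changed by 0.79 and 1.07 in spheres against monolayer.

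Genes of glycolysis, the alternative route to ATP, and of the hypoxia response were higher in spheres than in monolayer in 23 of 24 genes, with a median log2 change of 1.02. That is 95.8%, against 40.7% over all genes. Ldha, which turns pyruvate into lactate, averaged 717 ± 3.21 CPM in spheres and 282 ± 6.12 CPM in monolayer, a change of 1.34 (edgeR adjusted p = 4.05e-24), and Pgk1, a glycolytic kinase, changed by 1.07. Against primary cells 12 were higher and 10 lower (50% and 41.7%), where the shares over all genes were 38.9% and 40.6%. Hk2, a hexokinase at the entry of glycolysis, was higher in spheres than in primary cells by 1.52, and Slc16a3, a lactate exporter, was lower, at -2.45. In monolayer against primary cells most of these lists had more genes lower than higher by TMM: 22 of 24 glycolysis and hypoxia response genes, 12 of 17 citric acid cycle genes, 16 of 24 import genes and 38 of 72 mitochondrial ribosome genes were lower, with 2, 2, 5 and 9 higher, where 36.9% of all genes were lower and 34.4% higher.

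**Figure D5:**
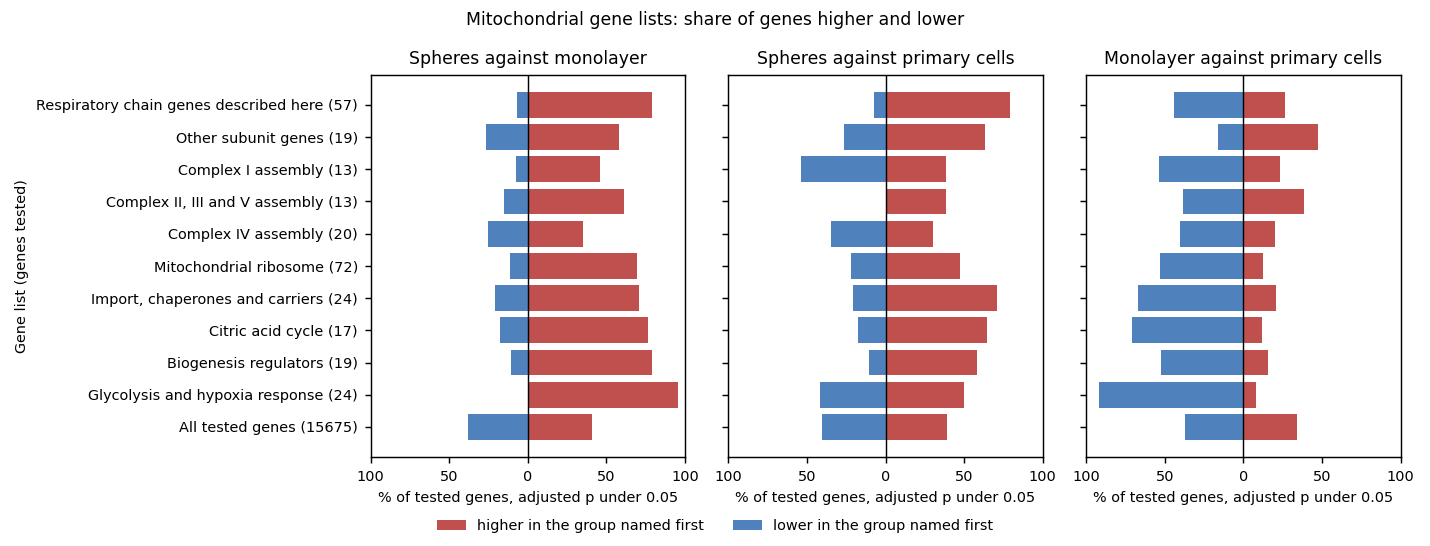
Share of the tested genes of each list (vertical axis, with the number of genes) that were higher (right) or lower (left) in the group named first of each panel title, in percent (horizontal axis), by edgeR adjusted p under 0.05. The respiratory chain genes reach 78.9% higher and 7.02% lower in the left and middle panels, and the bottom row gives all tested genes, with 40.7% higher and 37.7% lower in the left panel.

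The change of the 57 genes was set beside gene span, which bears on how many intronic reads are counted. Genes are not independent replicates and share the same libraries. Across them, Spearman's rho between span and log2 change was 0.03 in spheres against monolayer and -0.16 in spheres against primary cells. In monolayer against primary cells it was -0.21. Pearson's correlations with the logarithm of span were -0.07, -0.24 and -0.2 in the same order. With exon length, Spearman's rho was 0.23, 0.01 and -0.25. The part of intronic reads in the changes was not tested. The 33 tested genes whose span overlaps no other gene had a median change of 0.30 in spheres against monolayer, and the 24 with an overlap had 0.36. In spheres against primary cells these medians were 0.24 and 0.29.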

How the data were processed

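RNA sequencing of 9 libraries, 3 per group by the sample titles, was deposited as whole-number counts per gene without normalization. Per the submitters' processing notes, the authors used fastp 0.20.0, HISAT2 2.1.0 and featureCounts 1.6.0 on GRCm38; the annotation release is not given in the sources used here, nor is the strand setting, so reads of genes and antisense partners cannot be told apart. For all 53245 single-interval entries the stated length equals the whole span, introns included. Of 1213 protein-coding entries wholly inside another span, 1212 had at most 3 counts, as had all 37 mitochondrial entries; their levels were not analysed here.

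Genes were tested with edgeR 4.0.16 (R 4.3.3) in 1 fit of all 9 libraries: scaling by TMM, a filter on low counts (filterByExpr, minimum count 10), a two-sided robust quasi-likelihood F-test, and glmTreat for 1.5-fold, with Benjamini-Hochberg adjustment over all genes and a threshold of 0.05. Changes are log2 ± SE. Code was tested on simulated data. Alternatives were other scalings, no filter, DESeq2 1.42.0, fewer libraries, a replicate block and non-overlapping genes.

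Members and lists were chosen with earlier results of these data known; 1 listed gene is not reported here. Named genes are drawn from the 6 largest changes each way per comparison, all members of complexes II, III, V and Cycs, tested alternative isoforms, and the 4 smallest adjusted p per list, of which the text gives a selection made with values known; other named members, among them the complex I core, were added after their values were seen.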

Additional observations from a re-analysis of the deposited data

How the results depend on the processing

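The 9 counts of respiratory chain genes (higher, lower and past 1.5-fold in 3 comparisons) were recomputed under 7 other settings and without each library. Leaving out a library gave 43 to 45 genes higher and 4 to 5 lower in spheres against monolayer, 43 to 46 and 3 to 4 in spheres against primary cells, and 12 to 16 and 24 to 26 in monolayer against primary cells; past 1.5-fold were 6 to 9, 4 and 0. Scaling by total counts moved 5 counts: 0 genes were lower and 29 past 1.5-fold in spheres against monolayer, and 1 was higher, 48 lower and 4 past 1.5-fold in monolayer against primary cells. That scaling moved the median of all genes by 0.3 in the former comparison and by -0.3 in the latter. Upper quartile scaling left 8 higher in monolayer against primary cells. With only genes whose span overlaps no other, 33 members were tested, and the counts fell by construction to 26 higher in spheres against monolayer, 26 higher and 2 lower in spheres against primary cells, and 14 lower in monolayer against primary cells.

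Among changes that passed the threshold under either scaling, directions turned under total counts only; smaller, uncalled changes also turned elsewhere, such as Cycs in monolayer against primary cells (-0.02 by upper quartile scaling). In spheres against monolayer the changes became 0.28 for Ndufa2, 0.10 for Ndufa11, 0.10 for Ndufs4 and 0.23 for Cox6b1. In monolayer against primary cells they became -0.20 for Ndufa5, -0.07 for Ndufa11, -0.10 for Ndufb3, -0.17 for Ndufb4, -0.13 for Ndufb7, -0.23 for Ndufb8, -0.14 for Ndufb11, -0.23 for Ndufc1, -0.19 for Ndufs1, -0.25 for Ndufs6, -0.29 for Sdhc, -0.19 for Sdhd, -0.11 for Uqcrb, -0.08 for Uqcrh, -0.24 for Cycs, -0.05 for Ndufa4, -0.09 for Cox6b1, -0.16 for Cox6c, -0.06 for Cox7a2 and -0.03 for Atp5e. The lower TMM factors of the monolayer libraries make this shift by construction.

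Libraries with the same replicate number did not deviate together (correlations from -0.0098 to 0.0256). These correlations cannot show whether libraries of different groups shared an animal or preparation, which the labels do not state. A fit with the replicate block gave 46 higher and 4 lower, 45 and 4, and 14 and 25 in the comparisons in the order above. Counting error depends on the number of counts, which ran per library from 221 to 426 for Ndufb2 and from 22630 to 45412 for Atp5b. Its part in the spread was not tested. Genes inside other spans and mitochondrial genes cannot be read from these counts.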
